A study of Rattus norvegicus with 6 samples.

Results

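The cytosolic ribosomal protein genes were examined in kidneys of 2 rat strains. Members were the probe sets of the deposited table whose platform annotation gives exactly 1 symbol, Rpl or Rps with a number, Rplp0, Rplp1, Rplp2 or Rpsa. Kinases, pseudogenes and like genes were left out, and the probe set with the highest mean signal stood for each gene. This gave 42 genes, represented among 48 probe sets, of 14217 named genes on the array, 29 for the large and 13 for the small ribosomal subunit. A further 33 probe sets list a ribosomal protein symbol together with other symbols, such as like genes and pseudogenes, and these were not named. For that reason, several well-known members, among them Rplp1, Rplp2, Rps14 and Rps19, have no values here.

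The congenic group comprised 3 adult male S.LEW.D1MCO4x1x3Bx1 rats, which carry a Lewis segment of chromosome 1 on the Dahl salt-sensitive background. The other group comprised 3 adult male inbred Dahl salt-sensitive SS/Jr rats, called S here, the strain that develops high blood pressure. By strain design both groups share the S genome outside the segment, which was not checked by genotype here. Ages, diets and litters are not given in the labels. Each rat contributed kidney RNA to 1 Affymetrix 1-colour array, so fewer cells of a type and less RNA per cell cannot be told apart. By its title, the series belongs to positional work on Adamts16, a metalloprotease gene linked to inherited hypertension.

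The cytosolic ribosome reads mRNA in its small subunit and joins amino acids in its large subunit. Each subunit is a core of ribosomal RNA clothed in small, mostly basic proteins that are needed in equal numbers. The mRNAs of these proteins start with a 5' terminal oligopyrimidine tract (TOP), a C followed by a run of C and T, through which mTOR and Larp1 control their translation. In the kidney, as elsewhere, ribosome production follows cell growth, and a surplus of free Rpl5 and Rpl11 with 5S ribosomal RNA restrains the p53 regulator Mdm2.

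A feature that many of these genes have, and that did not choose them, is visible at their annotated starts. RefSeq promoters of build GRCr8 were found for 35 of the 42 genes. Within 15 bases on either side of the start, 22 of these 35 (62.9%) had a run of at least 8 C or T on the transcribed strand, against 11.4% of all 33469 promoters in the table. On the opposite strand the shares were 2.86% and 13.0%. The windows below are those of the 3 genes with unadjusted p below 0.05 (Rps3, Rpl41 and Rpl21), of Rpl34 and Rps24, which have long runs, and of the stalk gene Rplp0. The longest pyrimidine run of each window is in capitals.
Rps3 (GRCr8 chr1:163195762-163195791, minus strand): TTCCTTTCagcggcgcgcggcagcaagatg
Rpl41 (GRCr8 chr7:1563483-1563512, minus strand): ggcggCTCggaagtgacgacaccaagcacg
Rpl21 (GRCr8 chr12:13386139-13386168, minus strand): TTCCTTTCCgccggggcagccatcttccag
Rpl34 (GRCr8 chr2:221962269-221962298, minus strand): CCCCTTCCTTTTCCTCTTCCggggacggtg
Rps24 (GRCr8 chr16:96502-96531, plus strand): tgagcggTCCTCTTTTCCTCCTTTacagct
Rplp0 (GRCr8 chr12:46718376-46718405, minus strand): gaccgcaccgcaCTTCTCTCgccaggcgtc
The run does not sit at the same base in each window. Annotated starts can differ by some bases from the first transcribed base, but the reason for the differing positions was not tested. In the 300 bases of each promoter, on either strand, CGGAAG, the core bound by GABP, was present in 48.6% of the 35, against 16.6% of all promoters. AAGATGG, a core bound by YY1, was present in 22.9% against 7.01%, GGGCGG, bound by SP1, in 65.7% against 33.1%, and TATAAA in 11.4% against 14.2%. Over the 21842 promoters of coding genes alone, the shares were 19.8% for CGGAAG, 7.29% for AAGATGG, 41.8% for GGGCGG and 13.0% for TATAAA. For the pyrimidine run on the transcribed strand the share was 11.3%. None of these letter matches shows that a factor binds.

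The number of arrays limits the precision. Signals of different probe sets also depend on their probes, so an order of signals is not an order of mRNA levels. The 6 arrays had median signals of 163 to 178, and the 3' to 5' signal ratio of GAPDH, a sign of RNA integrity, was 1.12 to 1.20 in congenic and 1.11 to 1.18 in S kidneys. The same ratio was 1.94 to 2.06 in congenic and 1.99 to 2.30 in S kidneys for beta-actin, and 2.09 to 2.78 in congenic and 1.83 to 2.74 in S kidneys for hexokinase. Of the 42 genes, 39 passed the filter on low signals (mean log2 signal above the median of 31042 probe sets), 27 of the large and 12 of the small subunit. All of these but Rpl39 had a mean signal between 7397 and 30799, and 29 of the 39 lay in the top 1% of signals. Their median within-group SD was 0.10 on the log2 scale, against 0.16 for all 15521 probe sets tested, and the median standard error of a strain difference was 0.084 against 0.14. The 759 other probe sets with mean signals of at least 5000, a limit chosen after the data were seen, had a median SD of 0.092 and a median standard error of 0.081.

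The strain comparison asks whether ribosomal protein mRNAs had another level in the congenic kidney. No gene of either subunit passed limma's threshold of adjusted p 0.05, and the smallest adjusted p among the 39 was 0.346. Over all probe sets tested, 0% passed this threshold and 0.0773% passed adjusted p 0.1, which no ribosomal protein gene did. At unadjusted p below 0.05, 2 of the 39 were higher in congenic kidneys (5.13%, against 4.72% of all probe sets tested) and 1 was lower (2.56% against 5.61%). These shares lie near that background or below it. The split depended on the scaling: centring on each array's median log2 signal gave 14 higher and 0 lower (9.48% and 2.49% of all probe sets tested), and quantile normalisation gave 1 higher and 3 lower (4.68% and 5.03%). The 14 higher after centring were 35.9% of the members, near the 30.6% of the 759 other probe sets of high signal. Without the intensity trend the split was 0 and 0 (3.52% and 5.71%). The 2 higher genes, Rpl41 and Rps3, were also the members with both p below 0.05 and groups that did not overlap, a rule met by 7.95% of all probe sets tested. Most differences had the same sign, although small in size: 34 of 39 (87.2%) were positive, against 48.2% of all probe sets tested. Positive shares were also high among other bright probe sets, 69.8% of the 759 and 74.9% of the 271 with mean signals of 10000 or above. The median log2 difference, congenic minus S, was 0.08 for the large and 0.12 for the small subunit. It was -0.0087 for all probe sets tested, 0.06 for the 759 and 0.08 for the 271.

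**Figure D1:**
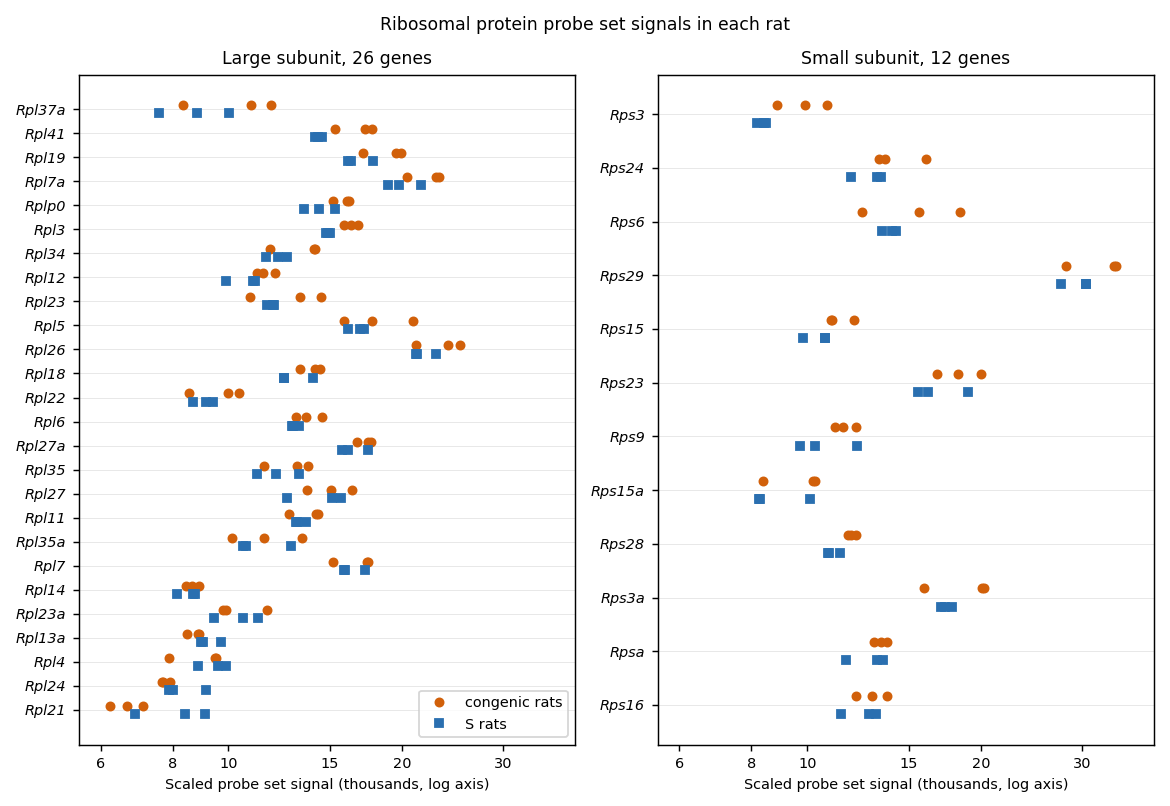
Scaled probe set signal (divided by 1000, log axis) of the 38 ribosomal protein genes with mean signal above 5000, with 1 point per rat, congenic rats as orange circles drawn above S rats as blue squares. Rps3, with congenic signals of 8865 to 10821 and S signals of 8163 to 8476, and Rpl41 are separated between strains, whereas most genes overlap.

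Among the large subunit genes, Rpl41, which encodes a very short basic peptide lying between the subunits, had signals of 15297, 17276 and 17725 in congenic kidneys, against 14527, 14128 and 14318 in S kidneys. All 3 congenic rats lay above all 3 S rats. The means were 16766 ± 1292 and 14324 ± 199 (SD, n = 3 each), a fold of 1.17 and a log2 difference of 0.22 (standard error 0.079, limma, unadjusted p = 0.0126, adjusted p = 0.346). The 2-sided exact permutation test gave p = 0.1, the smallest that 3 against 3 allows.

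Rpl37a had the highest log2 difference of the tested large subunit genes, 0.23, with signals of 8354, 11859 and 10939 in congenic and 7589, 10008 and 8827 in S kidneys. The groups overlapped, since congenic replicate 1 lay below S replicates 2 and 3, and the 95% interval was -0.03 to 0.49. Rpl19, a protein that reaches across to the small subunit, read 17147, 19555 and 19908 in congenic kidneys, against 17783, 16093 and 16347 in S kidneys, a log2 difference of 0.17 (unadjusted p = 0.0574). Here too congenic replicate 1 lay within the range of the S rats.

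Proteins of the peptidyl transferase region and of the factor-binding stalk follow. Rpl3, which reaches close to the site of peptide bond formation, read 15838, 16326 and 16757 in congenic and 15006, 14781 and 14889 in S kidneys. Its groups did not overlap, but its log2 difference of 0.13 had a 95% interval of -0.02 to 0.28. Rplp0, the base of the stalk that recruits elongation factors, read 15809 ± 559 in congenic and 14389 ± 866 in S kidneys (log2 difference 0.14, adjusted p = 0.563 by limma). Rpl12, which sits at the foot of the stalk, read 11575 ± 424 and 10675 ± 679 in congenic and S kidneys, and all 3 congenic rats lay above the S rats. Rpl4, whose long loop lines the exit tunnel, was on the other side of 0, at -0.08.

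The 2 proteins that bind 5S ribosomal RNA and Mdm2 differed by less than the spread between rats. Rpl5 read 15838, 17751 and 20866 in congenic kidneys, against 16916, 16122 and 17191 in S kidneys. Congenic replicate 1 was the lowest of the 6 and congenic replicate 3 the highest, so the groups overlapped, with a log2 difference of 0.11 and a 95% interval of -0.09 to 0.31. Rpl11 had a log2 difference of 0.05 (95% interval -0.12 to 0.21). Rpl23 and Rpl26, which have also been linked to the p53 pathway, each had a log2 difference of 0.11, with intervals of -0.09 to 0.31 and -0.07 to 0.29. These intervals allow differences in either direction.

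Rpl35 and Rpl23a lie at the end of the exit tunnel, where signal recognition particle docks. Their log2 differences were 0.07 and 0.00. The Rpl23a signals were 9915, 11667 and 9803 in congenic and 9431, 10598 and 11265 in S kidneys. The remaining positive differences of the large subunit were Rpl7a with 0.14, Rpl34 with 0.13, Rpl18 with 0.10, and Rpl22, Rpl6, Rpl27a, Rpl27, Rpl35a, Rpl7 and Rpl14, from 0.02 for Rpl14 to 0.08 for Rpl22. None of these reached unadjusted p below 0.05.

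All 5 negative differences among the 39 belonged to the large subunit. Rpl21 read 6676, 7110 and 6223 in congenic kidneys, against 6888, 9090 and 8397 in S kidneys. S replicate 1 lay between the congenic rats, so the groups overlapped. Congenic minus S gave -0.28 on the log2 scale, a fold of 0.825 (standard error 0.099, limma, unadjusted p = 0.0134, adjusted p = 0.348), and the exact permutation test gave p = 0.2. It ran from -0.39 without S replicate 1, with adjusted p = 0.0954, to -0.19 without S replicate 2.

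Rpl24, which forms a bridge to the small subunit, had -0.10, and Rpl13a, which can leave the ribosome to repress translation of inflammatory mRNAs, had -0.08. Rpl13a was the 1 tested member whose congenic signals (8873, 8837 and 8489) all lay below the S signals (8948, 9689 and 9023). Its permutation p was 0.1 and its unadjusted p by limma was 0.311. Rpl39, a short protein of the exit tunnel wall encoded on the X chromosome, had the lowest difference, -0.63 with a standard error of 0.40. Its signals were 320, 102 and 466 in congenic and 439, 280 and 458 in S kidneys, and without congenic replicate 2 the difference was 0.01, so that value rested on 1 rat.

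**Figure D2:**
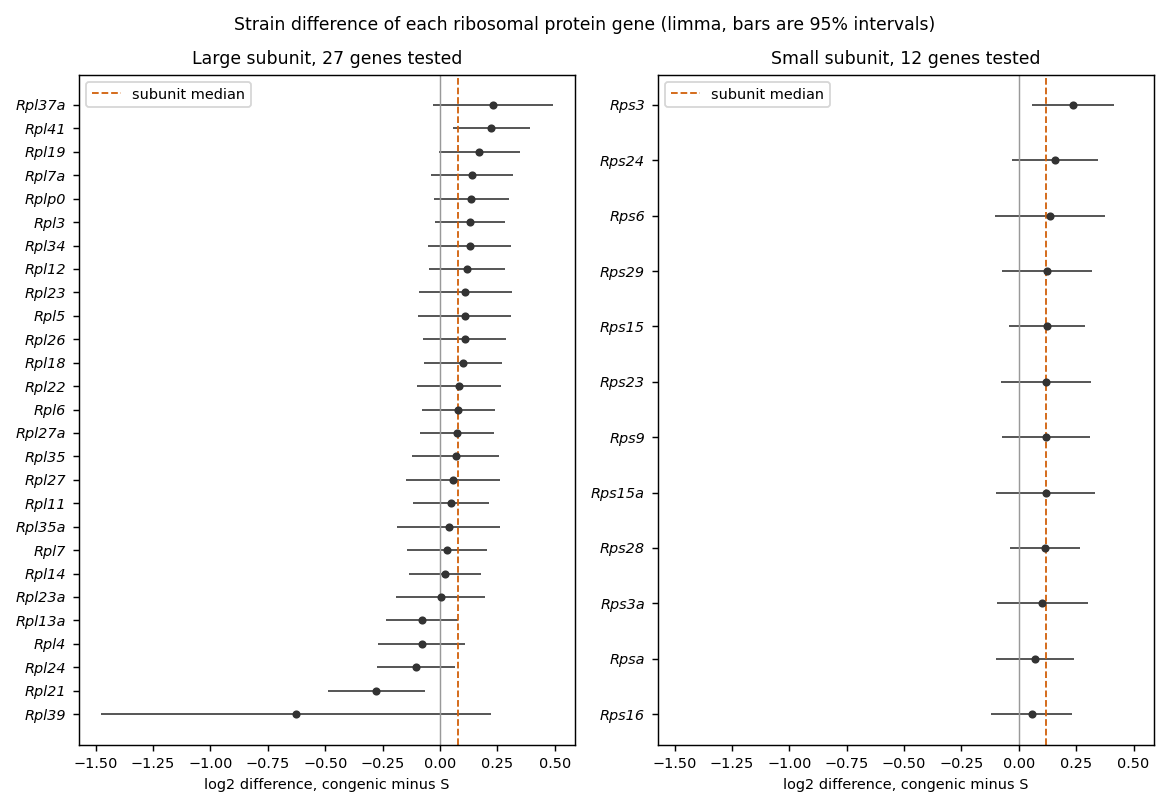
log2 difference, congenic minus S, of the 39 tested ribosomal protein genes, with 95% intervals from limma and a dashed line at the median of each subunit (0.08 for the large, 0.12 for the small). The intervals of Rpl41, Rps3 and Rpl21 exclude 0 before adjustment, and all 12 small subunit estimates lie above 0.

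All 12 tested small subunit genes had positive log2 differences, from 0.06 to 0.24. The highest was that of Rps3, which lines the mRNA entry channel and also acts in DNA repair and NF-kB signalling. Rps3 read 8865, 9922 and 10821 in congenic kidneys, against 8414, 8476 and 8163 in S kidneys, and the groups did not overlap. The means were 9869 ± 979 and 8351 ± 166 (SD, n = 3 each), a fold of 1.18 and a log2 difference of 0.24 (standard error 0.083, limma, unadjusted p = 0.0127, adjusted p = 0.346, exact permutation p = 0.1).

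Rps15, whose tail reaches towards the decoding site, read 10980, 12070 and 11026 in congenic kidneys, against 10715, 10728 and 9831 in S kidneys, without overlap (log2 difference 0.12, 95% interval -0.04 to 0.29). Rps28, near the mRNA exit, read 11913, 11766 and 12137 in congenic and 11381, 10839 and 10900 in S kidneys. These groups did not overlap either, and the log2 difference was 0.11 (95% interval -0.04 to 0.27). Rps23, a decoding centre protein, and Rps9, at the mRNA entry, each had 0.12 with overlapping groups.

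Rps6, the substrate of S6 kinase downstream of mTOR, read 12431, 15602 and 18431 in congenic kidneys, against 14260, 14040 and 13500 in S kidneys. The congenic rats held both the lowest and the 2 highest signals, and the log2 difference of 0.13 (95% interval -0.10 to 0.37) was -2.98e-04 without congenic replicate 3. Rps24, one of the genes mutated in Diamond-Blackfan anaemia in humans, had 0.16 and read 14353 ± 1502 in congenic and 12840 ± 819 in S kidneys. Rps29, a zinc-binding protein, read 28049, 34366 and 34103 in congenic kidneys, against 30400, 27493 and 30381 in S kidneys, a log2 difference of 0.12 with overlapping groups. Rps15a had 0.12, Rps3a 0.10, Rpsa, also known as the laminin receptor precursor, 0.07, and Rps16 0.06.

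Counted over both subunits, all 3 congenic signals lay above all 3 S signals for 6 of the 39 genes (15.4%, against 7.98% of all probe sets tested). These were Rpl41, Rpl3, Rpl12, Rps3, Rps15 and Rps28. They lay below for 1 gene (2.56%, against 7.99%). Among the 759 other probe sets of high signal, 140 (18.4%) lay above and 40 (5.27%) below.

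The positive differences came mainly from congenic replicates 2 and 3. For each gene, the deviation of each array from the gene's mean over 6 arrays was taken on the log2 scale. The median over the 27 large subunit genes was -0.07, 0.09 and 0.09 in congenic replicates 1 to 3, against -0.05, -0.04 and -0.04 in S replicates 1 to 3. Over the 12 small subunit genes it was -0.02, 0.12 and 0.14 in the congenic rats, against -0.03, -0.11 and -0.05 in the S rats. Congenic replicate 1 lay below all 3 S rats for the large subunit and above all 3 by a small margin for the small subunit, and below the other congenic rats for both. Of the 39 genes, 15 had their highest signal in congenic replicate 2, 18 in congenic replicate 3 and 1 in congenic replicate 1, and the lowest signal fell in congenic replicates 1 to 3 for 10, 1 and 3 genes, against 5, 11 and 9 in S replicates 1 to 3. The 39 genes summed to 494064, 556676 and 556698 in congenic kidneys, against 504109, 498757 and 501253 in S kidneys.

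**Figure D3:**
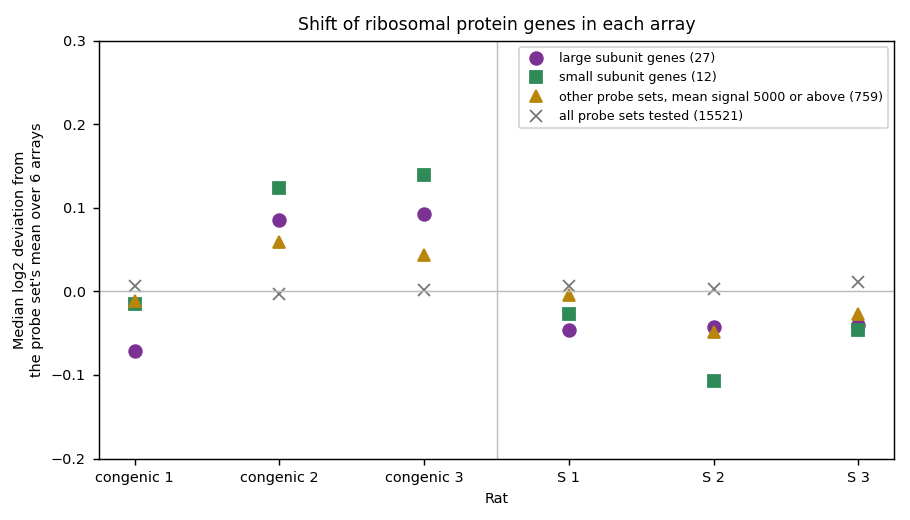
Median log2 deviation from each probe set's mean over 6 arrays, for large subunit genes, small subunit genes, other probe sets with mean signal of 5000 or above, and all probe sets tested, in the 3 congenic and the 3 S rats. Ribosomal protein genes are raised in congenic 2 and 3 (0.09 to 0.14) but not in congenic 1, and the other probe sets of high signal are also raised in congenic 2 and 3, with smaller deviations (0.06 and 0.04).

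Without congenic replicate 1, the count of genes with p below 0.05 and groups that did not overlap was 13 in place of 2, and the medians were 0.13 for the large and 0.19 for the small subunit. The 13 were 33.3% of the 39 genes, against 9.96% of all probe sets tested and 21.7% of the 759 other probe sets of high signal in the same fit, where groups of 2 and 3 arrays separate more easily. The same count was 7 without S replicate 1 (17.9%, against 11.6% and 21.5%) and 0 without congenic replicate 3 (against 7.51% and 10.1%). No ribosomal protein gene passed adjusted p 0.05 in any of the 6 fits with 1 array left out. Array titles open with a number whose meaning the labels do not state. Numbers below 10 were carried by 2 congenic arrays and 1 S array, whose medians were 0.04 for the large and 0.06 for the small subunit. Numbers of 10 or above were carried by 1 congenic and 2 S arrays, with medians of 0.14 and 0.16. With 1 array on one side of each subset, these values have no replicate check.

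The size of the difference moved with signal strength across the whole array. Among probe sets outside the ribosomal protein genes, the median log2 difference was -0.05 for the 6905 tested with mean signals under 500, 0.02 for the 2540 between 1000 and 2000, and 0.08 for the 271 of 10000 or above. Probe sets that list a ribosomal protein symbol among several were left out of these groups. The 759 other probe sets with a mean signal of at least 5000 had a median of 0.06 and 69.8% positive differences. Their median deviations were -0.01, 0.06 and 0.04 in congenic replicates 1 to 3, against -0.0044, -0.05 and -0.03 in S replicates 1 to 3, and congenic replicate 1 lay among the S rats. Quantile normalisation gives all arrays the same distribution of signals. After it, the medians of the ribosomal protein genes were 0.01 for the large and 0.06 for the small subunit, with 25 of 39 positive. Cyclic loess gave 0.0063 and 0.05, with 24 of 39 positive. Centring the arrays on their median log2 signal, gave 0.15 and 0.19, while the median of all probe sets tested was then 0.06. Quantile normalisation and cyclic loess can also remove a shift of these genes themselves, as 29 of the 39 lie in the top 1% of signals. The part of signal strength in the shared sign of the ribosomal protein genes was not tested.

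**Figure D4:**
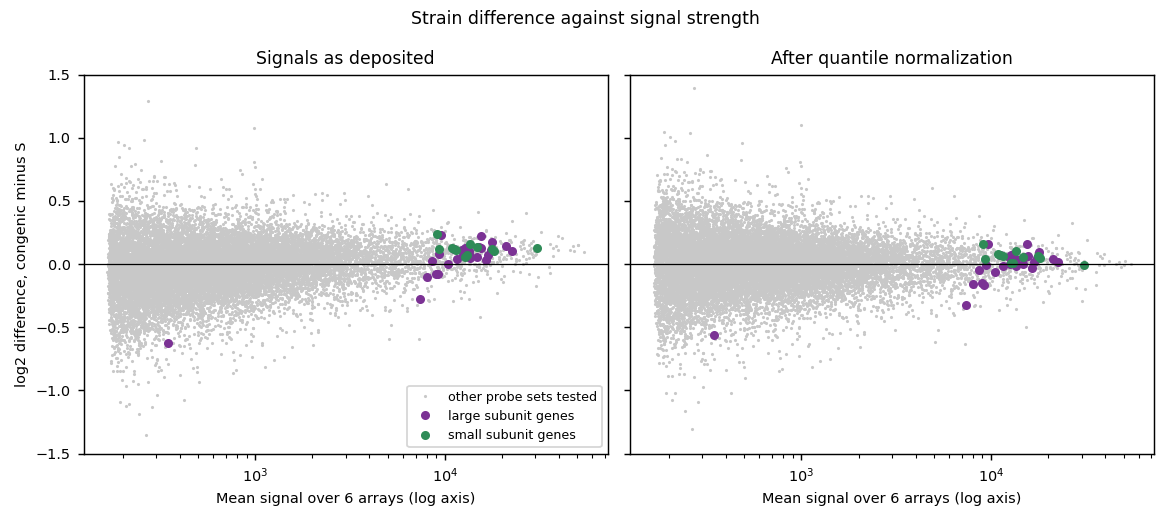
log2 difference, congenic minus S, against mean signal over 6 arrays (log axis) for the 15521 probe sets tested, with large subunit genes in purple and small subunit genes in green, for signals as deposited (left) and after quantile normalisation (right). All tested ribosomal protein genes but Rpl39 sit at the right of each panel, where most differences of the deposited signals lie above 0. Of the 39 genes, 34 lie above 0 with signals as deposited and 25 after quantile normalisation.

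Rpl41, Rps3 and Rpl21 kept their signs under these steps. After quantile normalisation Rpl41 had a log2 difference of 0.16, Rps3 0.16 and Rpl21 -0.32, and after cyclic loess they had 0.15, 0.17 and -0.33. With arrays centred on the median they had 0.29, 0.31 and -0.21. Their adjusted p values by limma over these 3 normalisations ran from 0.186 to 0.515.

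**Figure D5:**
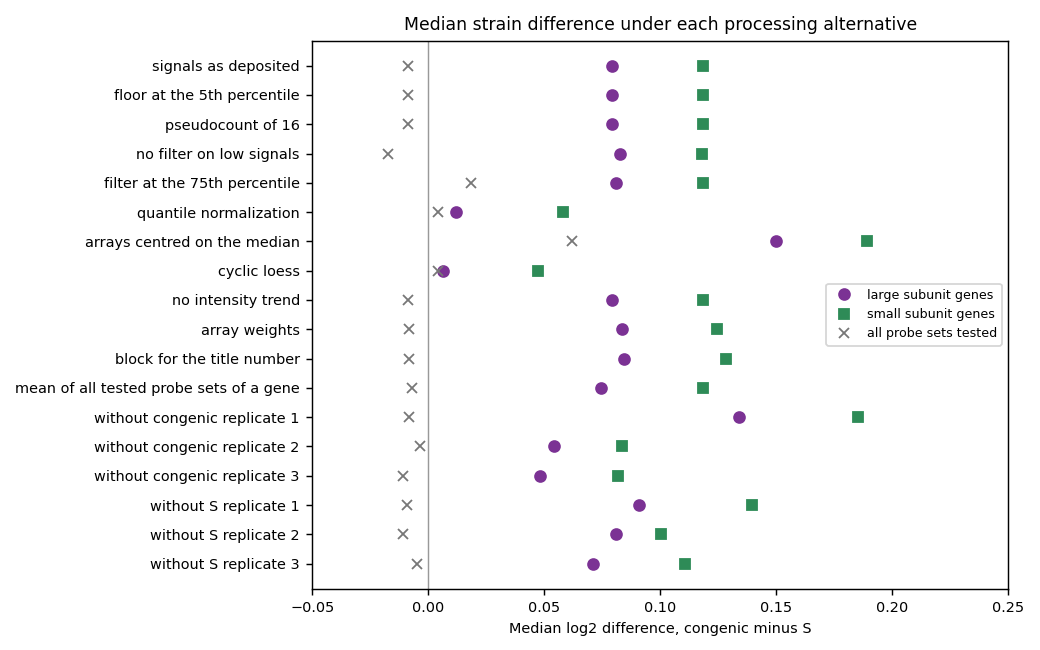
Median log2 difference, congenic minus S, of large subunit genes (circles), small subunit genes (squares) and all probe sets tested (crosses) under each processing alternative and with each array left out. Large subunit medians run from 0.0063 with cyclic loess to 0.15 with arrays centred on the median, and small subunit medians from 0.05 to 0.19 under the same alternatives.

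Probe sets of 1 gene did not always give 1 answer. Rpsa has 3 tested probe sets, and their log2 differences were 0.07, 0.17 and 0.22. For the second of these, the signals were 7852, 7710 and 8098 in congenic kidneys, against 7433, 6791 and 6780 in S kidneys, without overlap (unadjusted p = 0.037). For Rpl3, Rpl7 and Rps24 a second, much dimmer probe set passed the filter and had the opposite sign, -0.18, -0.37 and -0.28, against 0.13, 0.03 and 0.16 for the brighter one. The second probe set of Rpl14 lay under the filter. Ribosomal protein genes have many processed copies in the rat genome, and probes may also hybridise with transcripts of those, so values of single members are uncertain to that degree.

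The 3 genes under the filter had signals at which no level can be assigned without detection calls. Rpl30 read 126, 114 and 127 in congenic kidneys, against 93.3, 40.2 and 58.2 in S kidneys. In the fit of all 31042 probe sets its log2 difference was 1.02 with a 95% interval of 0.09 to 1.96 (unadjusted p = 0.0369). Rpl28 read 25.6, 56.9 and 68.8 in congenic and 5.45, 31.2 and 43.4 in S kidneys, and Rps13 read 57.0 ± 44.9 in congenic and 48.1 ± 23.2 in S kidneys. All 3 symbols also occur on probe sets with several symbols, which were not named. The 33 probe sets of that kind had a median log2 difference of 0.08 with 26 positive.

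Genes with long and short pyrimidine runs had like medians. The 20 tested genes with a run of at least 8 had a median log2 difference of 0.11 (17 positive), and the 13 with a shorter run 0.10 (11 positive). The genes of the 42 found in the GRCr8 gene table, 40, lie on 13 chromosomes, 8 of them on chromosome 1. The one nearest to Adamts16 in gene order, Rpl28, is separated from it by 867 annotated genes. The 6 tested members on chromosome 1 had log2 differences of -0.08 (Rpl13a) to 0.24 (Rps3).

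Other genes of the translation machinery showed like or smaller medians, and none passed adjusted p 0.05 by limma. Of 14 tested mRNAs other than ribosomal protein mRNAs known to carry a TOP, 12 had positive differences with a median of 0.10, and 3 (21.4%) were higher at unadjusted p below 0.05, against 4.72% of all probe sets tested and 14.0% of the 759 other probe sets of high signal. Eef1a1, the elongation factor that brings aminoacyl-tRNA to the ribosome, read 30648 ± 5314 in congenic and 22960 ± 1424 in S kidneys (log2 difference 0.40, limma adjusted p = 0.249). Eif3f had 0.19 and Eef1d 0.18. Rack1, a small subunit scaffold protein whose symbol falls outside the rule, read 9048 ± 148 and 8943 ± 339 in congenic and S kidneys, a log2 difference of 0.02.

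The 73 mitochondrial ribosomal protein genes, which serve a separate ribosome, had a median log2 difference of 0.06. Positive differences numbered 57 (78.1%, against 48.2% of all probe sets tested). Mrps11 had 0.28 and Mrpl34 -0.29. At unadjusted p below 0.05 there was 1 gene in each direction (1.37% each). The shares of all probe sets tested were 4.72% higher and 5.61% lower. The median deviation of this group was 0.03, 0.08 and 0.0071 in congenic replicates 1 to 3, against -0.03, 0.0020 and -0.06 in S replicates 1 to 3. Congenic replicate 1 lay above all 3 S rats here, by a small margin. The 57 tested translation factor genes had a median of 0.02, with 8 higher (14.0%) and 4 lower (7.02%) at unadjusted p below 0.05, against 4.72% and 5.61% of all probe sets tested. Of these, Eif2s3y, the Y-linked subunit of initiation factor eIF2, had -0.76 and the smallest adjusted p, 0.0697, and Eif2a had -0.60.

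Genes that build ribosomes, 47 tested, had a median of 0.05. At unadjusted p below 0.05, 0 were higher (0%, against 4.72% of all probe sets tested) and 2 lower (4.26%, against 5.61%). The 2 were Polr1c, a subunit shared by RNA polymerases I and III, at -0.31, and the nucleolar protein gene Ncl at -0.22, while Eif6, which keeps free large subunits apart, had 0.14. The 18 genes that control ribosomal protein synthesis had a median of -0.01. None had unadjusted p below 0.05, against 4.72% higher and 5.61% lower of all probe sets tested. Of the 18, 8 had positive and 10 negative differences. The 3 of smallest p were negative: the mTOR complex subunit gene Mlst8 had -0.32, Gabpa, a subunit of the GABP factor, -0.24, and Akt1 -0.17. Among the positive ones, Myc had 0.39 and Rptor 0.28. Ribosome rescue and quality control, 12 genes, had a median of 0.04, with Vcp at 0.16, Edf1 at 0.15 and the recycling factor gene Abce1 at 0.09. Of the 5 paralogues named as like genes on the array, the 2 tested were Rps27l at -0.21 and Rpl7l1 at -0.02. Rpl39l1, Rpl26l1 and Rpl3l lay under the filter. Rpl39l1 read 7.25 ± 3.31 in congenic and 45.6 ± 16.9 in S kidneys. All congenic signals of Rpl39l1 lay under 12.3, were raised to it before log2 and so had no spread in the fit. Its difference of -1.83 in the fit of all 31042 probe sets (limma, unadjusted p = 0.00111) was therefore measured from that floor. In the same fit Rpl26l1 had -0.93 and Rpl3l -0.43. At such signals no level can be assigned without detection calls.

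Most kidney markers passed the filter on low signals. Proximal tubule markers had mostly positive differences, as the ribosomal protein genes and the other probe sets of high signal did. Of 10 markers, 8 (80%) had positive differences and 2 negative ones, with a median of 0.16. Positive shares were 69.8% for the 759 other probe sets of high signal and 48.2% for all probe sets tested. The summed signals of the 10 markers were 125787 to 132698 in congenic and 114165 to 123092 in S kidneys. The 2 tested erythroid markers had the opposite sign. Hbb read 13112 ± 3322 in congenic and 17383 ± 3442 in S kidneys (log2 difference -0.42), and Alas2 had -0.55. Epb42 lay under the filter and had 0.23 in the fit of all 31042 probe sets. The sums of the 3 erythroid markers on the array, mostly Hbb signal, were 9935 to 16901 in congenic and 15483 to 22020 in S kidneys. Median log2 differences were 0.12 for 6 immune markers, 0.09 for 5 endothelial, 0.05 for 8 collecting duct, 0.0022 for 5 podocyte, -0.10 for 7 loop of Henle and distal tubule, and -0.16 for 6 stromal and smooth muscle markers. Of the 7 loop and distal markers, 5 had negative differences, among them Cldn10 at -0.22 (unadjusted p = 0.00974 by limma) and Slc12a1 at -0.26, while Umod, which encodes uromodulin, had 0.25. The 1 tested adrenal marker, Mrap, had 0.04. The part of these markers in the ribosomal protein differences was not tested.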

How the data were processed

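The deposited values are linear probe set intensities from GCOS 1.4, as named in the submitters' processing notes. Settings and detection calls were not given in the sources used here. With 2% of values trimmed from each end, every array averaged 500.2, which shows scaling by the authors, and signals were used without further normalisation. Of 31099 probe sets, 57 controls were left out. Signals under the 10th percentile (12.3) were raised to it before log2, and the 15521 probe sets with mean log2 signal above the median were tested.

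The strain difference, congenic minus S, came from limma 3.58.1 (R 4.3.3), using lmFit and eBayes with a trend on intensity (10.7 prior degrees of freedom). Benjamini-Hochberg adjustment covered all probe sets tested. The p-values rest on the spread between these rats, pooled in part by eBayes with that of probe sets of like signal. The fit was tested on simulated data. Probe sets were named from the platform annotation, updated through Entrez identifiers in the GRCr8 gene table, where 40 of the 42 members were found, and Rpl37a and Rps9 kept the platform's symbol. Named genes are the members past adjusted p 0.05, the 5 highest and 5 lowest differences and 3 highest signals of each subunit, those with p below 0.05 and groups that did not overlap, a list by role, members whose probe sets disagreed, members under the filter, and up to 3 genes of smallest p from each other list. Members and lists were chosen with earlier results of these data known. Replicates are numbered in accession order. Alternatives covered floor, pseudocount, filter, normalisation, the intensity trend, weights per array, blocking on the title number, choice of probe set and each array left out. Python 3.11.15 and matplotlib 3.10.9 drew the figures.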

Additional observations from a re-analysis of the deposited data

How the results depend on the processing

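The count of ribosomal protein genes past adjusted p 0.05 was 0 under every alternative run. The count with p below 0.05 and groups that did not overlap, 2 as reported, was 10 with arrays centred on the median (25.6%, against 9.09% of all probe sets tested) and 0 without the intensity trend (against 7.73%), and 0 to 13 with 1 array left out. After centring, 26.5% of the 759 other probe sets of high signal met the same rule, a share like that of the members. The median log2 difference of the large subunit, 0.08, was 0.012 after quantile normalisation, 0.0063 after cyclic loess and 0.15 after centring, and 0.05 to 0.13 with 1 array left out. That of the small subunit, 0.12, was 0.047 after cyclic loess and 0.19 after centring, and 0.08 to 0.19 with 1 array left out. Quantile normalisation and cyclic loess reduce differences that vary with signal strength, and can also remove a shift of the brightest genes themselves. Centring also moved the median of all probe sets tested. No paired analysis was possible because the strains share no replicate numbers in the labels. With a block for the title number, the count of 2 stayed 2 and the medians were 0.08 and 0.13.

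Of 467 single-gene values under the other alternatives, 23 changed sign, none of them past the threshold in either fit. After quantile normalisation these were Rpl22 (-0.0035), Rpl35 (-0.0014), Rpl27 (-0.0015), Rpl11 (-0.013), Rpl35a (-0.019), Rpl7 (-0.030), Rpl14 (-0.044), Rpl23a (-0.059) and Rps29 (-0.0054). After cyclic loess they were Rpl27a (-0.0046), Rpl35 (-0.0014), Rpl27 (-0.018), Rpl11 (-0.024), Rpl35a (-0.031), Rpl7 (-0.048), Rpl14 (-0.038), Rpl23a (-0.063), Rpsa (-0.0028) and Rps16 (-0.016). Rpl23a was -0.0040 with array weights, and averaging a gene's probe sets gave Rpl3 -0.024, Rpl7 -0.17 and Rps24 -0.059. Of 234 values with 1 array left out, 14 changed sign, and the ranges were -0.13 to 0.0091 for Rpl4, -0.038 to 0.12 for Rpl27, -0.066 to 0.14 for Rpl35a, -0.0049 to 0.097 for Rpl7, -0.078 to 0.061 for Rpl23a, -1.08 to 0.010 for Rpl39, -2.98e-04 to 0.28 for Rps6, -0.010 to 0.041 for Rpl14 and -0.0050 to 0.10 for Rps16. With 3 rats per strain, log2 differences near the median standard error of 0.084 could not be resolved.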
